A study of Homo sapiens with 8 samples.

Results

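Polysome association, the level of an RNA in polysome RNA relative to the level in the lysate it came from, was compared between lysates with low and with high counts of FBL in OCI-AML3, an established human acute myeloid leukaemia cell line. All 8 libraries of the series entered, an input and a polysome library from each of 4 lysates titled CT1, CT2, U1 and U2. The 2 lysates numbered 2 in the titles (CT2 and U2, 4 libraries) were set against the 2 lysates numbered 1 (CT1 and U1, 4 libraries), a grouping chosen by the FBL counts. The labels do not describe the number as a treatment.

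Cells carried a control short hairpin (shCT) or a hairpin against FBL (shFBL). Libraries titled CT bear the genotype label WT and those titled U the label FBL knockdown. Before lysis, all cells were exposed for 15 min to cycloheximide (100 µg/mL), an inhibitor of elongation that freezes ribosomes in place. Each lysate gave 100 µL as input RNA, and 290 µL was separated on a 10% to 50% sucrose gradient into 14 fractions. The sources used here do not say which of these were pooled to make polysome RNA, or whether the lysates came from separate cultures or infections. The p-values therefore speak only for these lysates, whose spread may in part be technical, and they rest mostly on a spread pooled over genes.

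FBL encodes fibrillarin, the enzyme of the box C/D class of small nucleolar ribonucleoproteins (snoRNPs). Guided by a small nucleolar RNA and held together by NOP56, NOP58 and SNU13, it places 2'-O-methyl groups on ribosomal RNA, and it also takes part in cutting pre-ribosomal RNA. A well translated mRNA carries several ribosomes and runs deep into the gradient, whereas mRNAs of the mitochondrial genome are translated inside mitochondria on mitochondrial ribosomes.

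Gene counts came to 22.2 to 40.8 mega-counts in polysome libraries and 30.8 to 43.1 mega-counts in input, and the shallowest was polysome U2. Of 11190 genes averaging at least 100 input counts, 103 had no count in polysome U2 and 14 to 36 in the other polysome libraries. The 44 myeloid markers summed to 10730 to 16900 CPM (counts scaled to library size after TMM) per library, against 15.8 to 30.4 CPM for 17 erythroid and megakaryocyte markers and 16.1 to 43.6 CPM for 18 lymphoid markers, of which 9 to 14 and 8 to 12 had no count. Levels are shares of a library, and a loss common to all RNAs of a polysome library would leave them as they are. A loss that spared some RNAs would raise the share of those RNAs, and total amounts were not measured here.

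FBL (ENSG00000105202, chromosome 19: 39834458 to 39846414, GRCh38) stood at 250 CPM in input CT1 and 253 CPM in input U1, against 88.1 CPM in input CT2 and 84.2 CPM in input U2. In polysome RNA it stood at 498, 499, 163 and 165 CPM in CT1, U1, CT2 and U2. The level therefore followed the number in both fractions and not the genotype label, which is how the groups were chosen, and no test is given. Relative to its own input, FBL mRNA was found on polysomes to a like degree in all 4 lysates: polysome minus input log2 CPM was 0.99, 0.98, 0.89 and 0.97 in CT1, U1, CT2 and U2, a difference of -0.06 between the numbers.

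**Figure D1:**
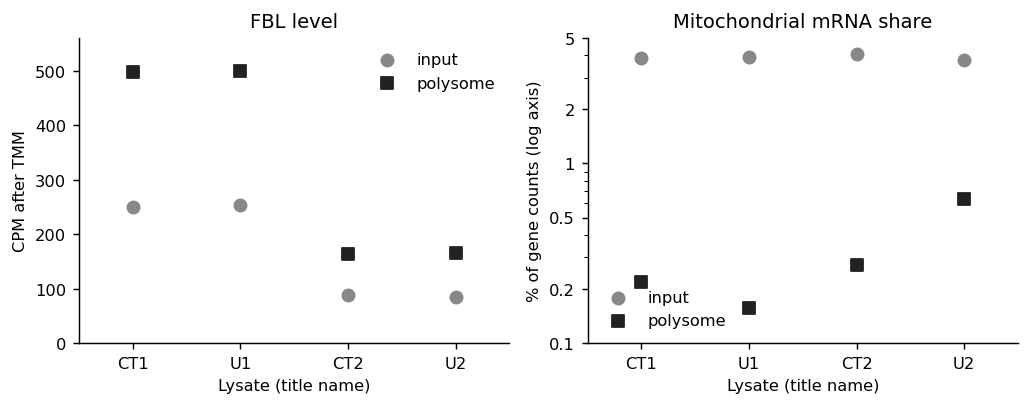
FBL level in CPM (left, from 0) and the share of gene counts from the 13 mitochondrial mRNAs (right, log axis) in each library, with 1 point per library, circles for input and squares for polysome. FBL separates the lysates by number in both fractions, while the mitochondrial share is 3.77% to 4.06% in every input library and ranges from 0.157% in polysome U1 to 0.638% in polysome U2.

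Whether low FBL goes with a redistribution of mRNAs between polysomes and the rest of the lysate was asked with a single fit over 16503 genes, in which the difference between the numbers in polysome minus input was tested with the lysate as a block. Polysome association differed between the numbers for 6 of 16503 genes (0.0364%) at an adjusted p under 0.05 (edgeR's quasi-likelihood test, Benjamini-Hochberg adjustment), and all 6 were higher in the lysates numbered 2 (0.0364% of genes tested). They were the mitochondrial ribosomal RNAs MT-RNR1 and MT-RNR2, the mitochondrial mRNAs MT-ND4 and MT-ND2, and 2 nuclear genes with few counts, CBSL and TIGD1. In this fit no gene was called lower, nor was one with DESeq2 or limma-voom on the same genes, while edgeR with each of the 3 other scalings called 1 lower. The smallest adjusted p on the lower side was 0.0714, for FCGR2C, which has near-identical copies and no count in either polysome library numbered 2. At an unadjusted p under 0.05, edgeR gave 498 genes (3.02%), of which 277 were higher (1.68%) and 221 lower (1.34%), where evenly spread p-values would give 825. Both lysates numbered 2 lay above both numbered 1 for 2419 genes (14.7%) and below them for 2612 (15.8%), and the median difference over all genes was -0.03 on the log2 scale (interquartile range -0.35 to 0.31). Only 2 residual degrees of freedom stand behind each gene, beside 20.6 prior degrees of freedom drawn from all genes. SEs and p-values thus lean mostly on other genes and may understate the spread of a single gene between lysates. Over other settings the count of calls ran from 0 to 200, and limma-voom called no gene (587 at an unadjusted p under 0.05) where DESeq2 called 7.

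The RNAs encoded by the mitochondrial genome made up 4 of the 6 calls. MT-RNR1, the small ribosomal RNA of mitochondria (chromosome M: 648 to 1601), stood at 55.0 CPM in polysome CT1, 33.3 in polysome U1, 88.7 in polysome CT2 and 95.5 in polysome U2. Its input level ran the other way, at 1714, 1443, 1346 and 1249 CPM in the same order. Polysome minus input was thus -4.96 and -5.44 in the lysates numbered 1 and -3.92 and -3.71 in those numbered 2, with no overlap, a log2 difference of 1.38 (SE 0.16, adjusted p = 0.000353, edgeR). MT-RNR2, the large mitochondrial ribosomal RNA, had polysome minus input values of -4.42, -4.63, -3.94 and -3.37 in CT1, U1, CT2 and U2, a log2 difference of 0.86 (SE 0.14, adjusted p = 0.0104, edgeR). Both RNAs remained strongly depleted from the polysome libraries in every lysate.

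Of the 13 mRNAs of the mitochondrial genome, 2 were called higher, 12 had an unadjusted p under 0.05 on the higher side (against 1.68% of all genes) and none was lower. Their median log2 difference was 1.06, against -0.03 over all genes, with a range from 0.44 to 1.39. MT-ND4, a core subunit of complex I (chromosome M: 10760 to 12137), stood at 195 CPM in polysome CT1, 133 in polysome U1, 267 in polysome CT2 and 538 in polysome U2, while input stayed between 5038 and 5499 CPM. Its log2 difference was 1.25 (SE 0.21, adjusted p = 0.0201, edgeR). MT-ND2, also of complex I, stood at 191, 143, 230 and 431 CPM in polysome CT1, U1, CT2 and U2, a log2 difference of 1.06 (SE 0.19, adjusted p = 0.0324, edgeR). For both genes, which were picked by their calls, the 2 lysates numbered 2 lay above the 2 numbered 1. Their calls depended on the setting: 8 of the 13 were called with each of the other scalings, but none with DESeq2, limma-voom, no block or a floor of 10 CPM, or without CT1 or U1. Over all settings the adjusted p of MT-ND4 ran from 3.52e-35 to 1, at log2 differences of 0.77 to 1.73.

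The other mitochondrial mRNAs were not called. Among those of complex I, MT-ND3 had a log2 difference of 1.12 (SE 0.23, adjusted p = 0.0993, edgeR), MT-ND1 of 0.96 (SE 0.22) and MT-ND6, transcribed from the opposite strand, of 0.84 (SE 0.26). MT-ND5 had the smallest difference, 0.44 (SE 0.23), and polysome minus input values of -1.31, -2.35, -1.19 and -1.59 in CT1, U1, CT2 and U2, so that its groups overlapped. Among cytochrome c oxidase subunits, MT-CO2 had the largest difference of all, 1.39 (SE 0.31), with 1022 CPM in polysome U2 against 187 to 345 CPM in the other polysome libraries. MT-CO3 was at 1.21 (SE 0.25, adjusted p = 0.106, edgeR), and MT-CO1 at 1.06 (SE 0.30) with overlapping groups. MT-CYB of complex III was at 1.01 (SE 0.23). The ATP synthase subunits MT-ATP6 and MT-ATP8 were at 1.13 (SE 0.24, adjusted p = 0.106, edgeR) and 1.22 (SE 0.33), and their counts are uncertain because the genes overlap, as MT-ND4L does with MT-ND4.

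The size of this difference was set mostly by the lysates titled U. Within the pair labelled FBL knockdown, all 13 mRNAs were higher in U2 than in U1, by 0.77 to 2.59 with a median of 2.03 on the log2 scale. Within the pair labelled WT, 11 of 13 were higher in CT2 than in CT1, by a median of 0.24 and a range of -0.06 to 0.43. The lysate U1 had the lowest association of the 4 for all 13 and U2 the highest for 11, and the lysates did not overlap between numbers, with number 2 higher, for 10 of 13 (against 14.7% of all genes). Leaving out U2 gave a median of 0.56 and leaving out CT2 a median of 1.52. The mitochondrial mRNA share of polysome counts was 0.219% in CT1, 0.157% in U1, 0.271% in CT2 and 0.638% in U2. Polysome U2 also had the fewest counts and the most abundant genes at 0. With all libraries thinned to the shallowest the median was 1.08 and none of the 13 was called. The part of material carried between fractions was not tested, nor was that of a change in the total mRNA on cytosolic polysomes. MT-RNR1 differed in both pairs, by 1.04 between the CT lysates and 1.73 between the U lysates. In the nuclear-encoded parts of the same complexes no such difference was seen: of 76 respiratory chain and ATP synthase subunits none was called, the median was 0.04, and none had an unadjusted p under 0.05. The complex I subunits NDUFB3 and NDUFS4 came nearest, at 0.55 (SE 0.28) and 0.55 (SE 0.36). Of 78 mitochondrial ribosomal proteins none was called, and the median was -0.06. At an unadjusted p under 0.05, 1 was higher (MRPS11 at 0.87, SE 0.33, against 1.68% of all genes). On the lower side 1 was (MRPS30 at -0.53, SE 0.24, against 1.34%).

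**Figure D2:**
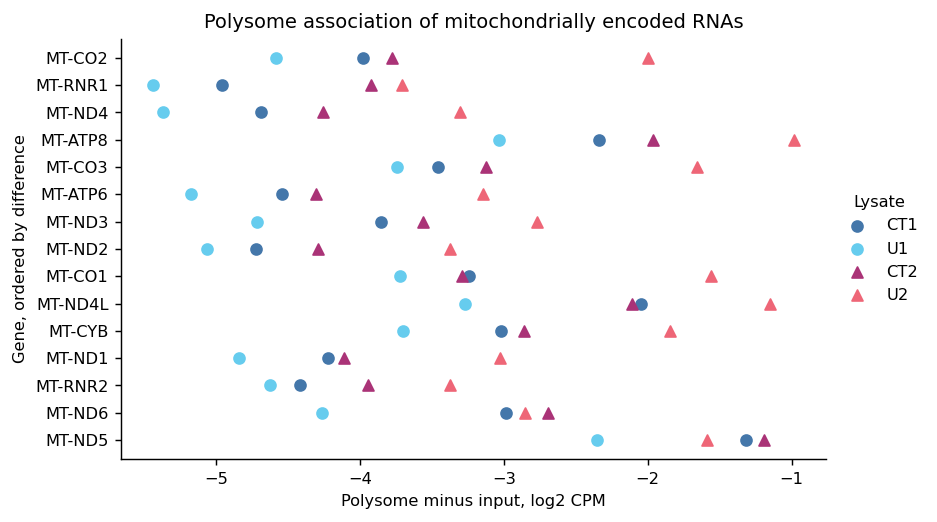
Polysome minus input log2 CPM of the 13 mRNAs and 2 ribosomal RNAs of the mitochondrial genome, 1 point per lysate, circles for lysates numbered 1 and triangles for those numbered 2. U1 lies leftmost in every row shown, U2 lies rightmost for most, and the gap between CT1 and CT2 is the smaller of the 2 gaps.

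The rule for named genes covers protein-coding and long noncoding genes of at least 10 CPM, so that the 2 nuclear calls and both mitochondrial ribosomal RNAs fall outside it and were chosen after their values were seen. TIGD1, a gene derived from a DNA transposase, had 6 and 4 counts in polysome CT1 and U1 and 72 and 54 in polysome CT2 and U2, against 403 to 718 counts in input. Its log2 difference was 3.93 (SE 0.62, adjusted p = 0.0104, edgeR). TIGD1 (chromosome 2: 232547970 to 232550592) overlaps EIF4E2, which had 2058 to 4397 counts in the polysome libraries. Reads that HTSeq held to be ambiguous between genes, 5.72% to 6.79% per library, were left out, so the count of TIGD1 is uncertain. CBSL is a near-identical copy of CBS, the enzyme cystathionine beta-synthase, and how reads were split between the copies is uncertain. CBSL had 0, 16, 190 and 297 counts in polysome CT1, U1, CT2 and U2 and 49, 307, 44 and 351 in input, a log2 difference of 6.33 (SE 0.89, adjusted p = 0.00254, edgeR) that depends on the prior count because of the 0. CBS itself differed by 0.39 (SE 0.60).

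Among the snoRNP proteins that work with fibrillarin, the mRNAs of NOP58 and NOP56 had a lower polysome association in the lysates numbered 1 than in those numbered 2, although neither was called. NOP58, a core protein of box C/D snoRNPs, had polysome minus input values of -1.78, -1.77, -0.53 and -1.13 in CT1, U1, CT2 and U2. Its log2 difference was 0.95 (SE 0.21, adjusted p = 0.14, edgeR). In CPM its polysome level was 60.6, 49.4, 127 and 67.8, and its input level 208, 169, 184 and 149. NOP58 was called in 7 of 16 other settings, DESeq2 and the other edgeR scalings among them, and not with limma-voom, no block, thinned libraries or without CT1, CT2 or U1. Over all settings its adjusted p ran from 3.67e-06 to 1. NOP56, its partner in the box C/D core, had values of -1.32, -1.13, -0.77 and -0.34, a log2 difference of 0.67 (SE 0.18, adjusted p = 0.675, edgeR). Its polysome level was 146, 147, 169 and 177 CPM while its input level was 364, 321, 288 and 224 CPM, so that the difference came in part with a lower input level in the lysates numbered 2. For both genes, picked as those with the smallest p of their list, the lysates numbered 2 lay above those numbered 1 (against 14.7% of all genes). Both genes host small nucleolar RNAs in their introns, which a count per gene may include. SNU13, which binds the kink turn of the guide, differed by 0.01 (SE 0.16), and DKC1, the pseudouridine synthase of the box H/ACA class, by 0.25 (SE 0.18). Over the 19 genes of the snoRNP list none was called, 2 had an unadjusted p under 0.05 on the higher side (against 1.68% of all genes) and none on the lower, and the median was 0.01.

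Factors that process pre-ribosomal RNA gave a similar picture. None of 104 was called, 8 had an unadjusted p under 0.05 on the higher side (against 1.68% of all genes) and 1 on the lower (against 1.34%), and the median was 0.02. GNL2, a nucleolar GTPase of the large-subunit pathway, had polysome minus input values of -2.73, -2.35, -2.07 and -1.18 in CT1, U1, CT2 and U2, a log2 difference of 0.92 (SE 0.27, adjusted p = 1, edgeR). SDAD1, a protein needed for export of the large subunit, had values of -1.96, -1.59, -0.99 and -0.31, a log2 difference of 1.14 (SE 0.35, adjusted p = 1, edgeR). In both, picked as those with the smallest p of their list, the 2 groups did not overlap and U2 was highest. Of 20 RNA polymerase I subunits and factors none was called and none had an unadjusted p under 0.05, and POLR1G had the smallest p (log2 difference 0.69, SE 0.40).

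**Figure D3:**
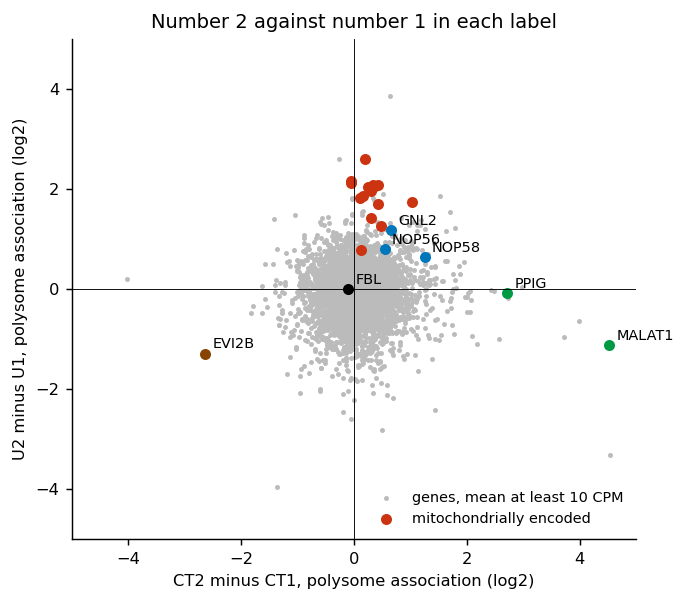
Difference in polysome association between number 2 and number 1, on the log2 scale, in the CT lysates (x axis) and in the U lysates (y axis), with a grey point for each of 8159 genes averaging at least 10 CPM. Mitochondrially encoded RNAs in red lie high on the y axis and near 0 to 1 on the x axis, NOP58, NOP56 and GNL2 lie in the upper right, and PPIG and MALAT1 lie far to the right with U pair values of -0.09 and -1.12.

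Ribosomal protein mRNAs had medians near 0, as given below. They belong to the terminal oligopyrimidine (TOP) mRNAs, which begin with a C followed by a run of C and T and whose translation is regulated together. The first 20 bases of the RefSeq transcript (GRCh38.p14, read from the start of transcription, with the C and the pyrimidine run in capitals) are shown for FBL, RPL12, RPS24, RPS12 and NOP56. The RefSeq start of FBL has such a run and that of NOP56 does not, and other start sites in these cells were not examined. They lie at chr19:39846360-39846379 on the minus strand, chr9:127451387-127451406 on the minus strand, chr10:78033863-78033882 and chr6:132814569-132814588 on the plus strand, and chr20:2652632-2652651 on the plus strand, in this order.
FBL: CTTTTCCacgtgcgaaagcc
RPL12: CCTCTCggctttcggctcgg
RPS24: CTCTTTTCCTCCTTggctgt
RPS12: CTCTTTCCCTgccgccgccg
NOP56: attgcgagccgaacccggga

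None of 47 large-subunit ribosomal protein genes was called, with a median of 0.03. A single gene, RPL12, had an unadjusted p under 0.05, on the lower side (against 1.34% of all genes). RPL12, a protein of the stalk base, had polysome minus input values of -1.10, -1.02, -1.24 and -1.42 in CT1, U1, CT2 and U2, a log2 difference of -0.27 (SE 0.12, adjusted p = 1, edgeR). None of 32 small-subunit genes was called, with a median of 0.01. RPS24 was at 0.25 (SE 0.12) and RPS12 at -0.26 (SE 0.15), both with an adjusted p of 1 (edgeR). RPL27, at 0.26 (SE 0.15), has a RefSeq start that lacks the run. Elongation factors and other TOP mRNAs had a median of 0.02 over 27 genes, with none called, and BTF3, a chaperone of nascent chains, had a difference of 0.37 (SE 0.19).

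The pattern of a C at the first base and 4 bases of C or T after it was then searched on the transcribed strand alone, at the start and nowhere else. It was present in 4.07% of the 35116 start-site windows of the RefSeq table and in 28 of 38 large-subunit and 19 of 25 small-subunit ribosomal protein genes that matched by symbol. Among protein-coding genes tested it was present in 791 of 10550 matched (7.50%). Their median log2 difference was -0.03. At an unadjusted p under 0.05, 12 were higher (against 1.68% of all genes) and 11 lower (against 1.34%). The 9759 genes without the run also had a median of -0.03, with 175 higher and 144 lower.

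Groups linked to translation initiation or to stress also had medians near that of all genes. Of 35 initiation factors none was called, and the median was 0.03. At an unadjusted p under 0.05, 3 were higher (against 1.68% of all genes) and none lower. EIF3A, the largest scaffold subunit of eIF3, had a log2 difference of 1.02 (SE 0.41, adjusted p = 1, edgeR), all of it from CT2. EIF3C has a near-identical copy and few counts, and stood at 2.07 (SE 0.83). Among mRNAs with a reported internal ribosome entry site, none of 29 was called, 3 were lower (against 1.34% of all genes) and none higher at an unadjusted p under 0.05, and the median was -0.09. These were XIAP, an inhibitor of caspases (-1.25, SE 0.50), NFE2L2, the regulator of antioxidant genes (-1.06, SE 0.45), and MYC, chosen after its value was seen (-0.57, SE 0.25). The polysome minus input values of XIAP were -0.83, -1.37, -1.44 and -3.42 in CT1, U1, CT2 and U2, so that U2 alone was far below the rest. MYC stood at -0.88, -0.99, -1.52 and -1.48, without overlap and with like values inside each number. None of these passed the adjusted test.

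For 27 p53 targets the median was -0.13, none was called, and none had an unadjusted p under 0.05. RRM2B, a ribonucleotide reductase subunit, was at -0.46 (SE 0.24), and CCNG1, cyclin G1, at -0.33 (SE 0.23). For 33 genes of the integrated stress response the median was -0.02 with none called. GARS1, glycyl-tRNA synthetase, was at 0.48 (SE 0.18), and the stress transcription factor DDIT3 at -0.41 (SE 0.28). Of 49 mitosis genes none was called, and the median was 0.00. At an unadjusted p under 0.05, 3 of them were higher (against 1.68% of all genes) and none lower. SMC2 of the condensin complex was at 0.86 (SE 0.32), with like values in both pairs, whereas its partner SMC4 was at 1.92 (SE 0.80) from CT2 alone. Among 54 DNA replication genes, none called and a median of 0.00, POLE, the catalytic subunit of DNA polymerase epsilon, was at -0.52 (SE 0.21) and the clamp loader subunit RFC2 at -0.30 (SE 0.20).

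Among 23 noncoding host genes of small nucleolar RNAs none was called, and the median was -0.12. SNHG1 was at -0.61 (SE 0.29) and SNHG9 at 2.71 (SE 1.07), the latter at a mean of 2.6 CPM. The 37 replication-dependent histone genes tested had a median of 0.57 with an interquartile range from -0.88 to 2.90, and none was called. Their median was -0.60 when CT2 was left out. At an unadjusted p under 0.05, 2 were higher (against 1.68% of all genes) and none lower. Their mRNAs mostly lack a poly(A) tail, and counts were low: 5 of the 37 had no count in both polysome libraries of a number. With these at a bound of 3 counts per library the median was again 0.57, but this changed only 5 values. In the fit with a floor of 10 CPM the median was -0.25. H2BC9 had no count in polysome CT1 or U1 and 1.05 and 1.06 CPM in polysome CT2 and U2. H2BC12 was at 2.29 (SE 0.94) with a mean of 3.1 CPM. The remaining lists had no member called. Of the proteasome list, PSMD14 was at -0.45 (SE 0.29) and PSMA4 at 0.25 (SE 0.17), and of the glycolysis list PFKM at 0.64 (SE 0.35) and HK1 at 0.26 (SE 0.19). Of the interferon list, ISG20 was at -0.34 (SE 0.20), of the cholesterol list HSD17B7 at -1.07 (SE 0.54), of the selenoprotein list SELENOH at -0.24 (SE 0.19), and of the myeloid list CD33 at -0.76 (SE 0.40). The medians of these 5 lists and of the proteasome list lay between -0.05 and 0.06. The second member by p of the interferon list, PARP14, was at 0.24 (SE 0.17), that of the cholesterol list, SC5D, at -1.13 (SE 0.66), and that of the selenoprotein list, GPX1, at -0.23 (SE 0.18). Nuclear and microRNA host noncoding RNAs had a median of 0.18 over 17 genes, which turned to -0.46 without CT2. Markers of other blood cells were few: 5 erythroid and megakaryocyte genes had a median of -0.02 and 8 lymphoid genes one of 0.11, with none called. These became 1.14 without U1 and -0.21 without CT1. The cytokine receptor IL7R was at 0.52 (SE 0.39).

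**Figure D4:**
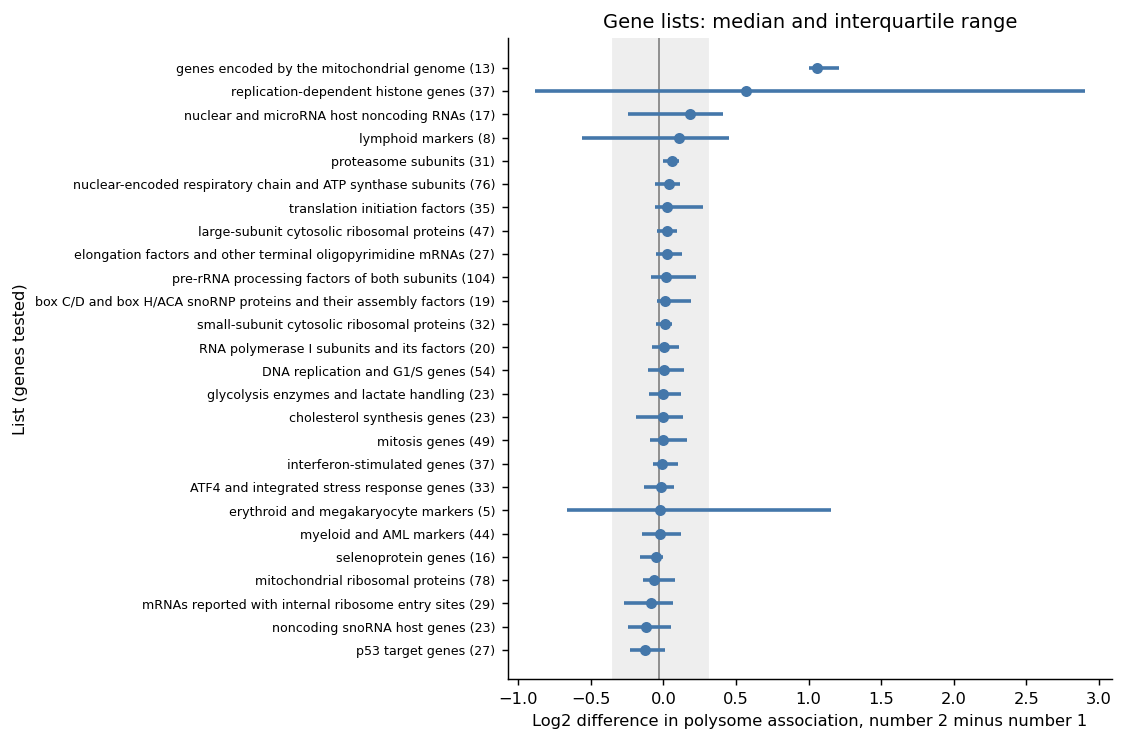
Median (point) and interquartile range (bar) of the log2 difference in polysome association, number 2 minus number 1, for each gene list, with the number of genes tested in parentheses. The grey band and line give the interquartile range (-0.35 to 0.31) and median (-0.03) of all 16503 genes, and the mitochondrial genome stands apart at 1.06 while the bar of the histone genes is the widest.

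On the lower side no gene was called, and the 6 with the smallest p among genes averaging at least 10 CPM are given as values. EVI2B, a membrane protein of myeloid cells, stood at 5.76, 4.90, 1.02 and 2.32 CPM in polysome CT1, U1, CT2 and U2 and at 18.9 to 24.4 CPM in input, a log2 difference of -1.99 (SE 0.46, adjusted p = 0.232, edgeR). MT1M, a metallothionein that binds metals, stood at 16.1, 28.8, 16.8 and 13.4 CPM in polysome RNA and at 6.12, 7.89, 12.5 and 15.7 CPM in input, so that its difference of -1.53 (SE 0.40, adjusted p = 0.529, edgeR) came with a higher input level in the lysates numbered 2. Metallothionein genes are close paralogs, and its count is uncertain. TMUB2, with a ubiquitin-like domain, was at -1.21 (SE 0.34), and GLYCTK, glycerate kinase, at -1.35 (SE 0.39). TMEM30A, a subunit of lipid flippases, had polysome minus input values of -2.05, -1.93, -2.37 and -3.00 in CT1, U1, CT2 and U2, a log2 difference of -0.69 (SE 0.21). LAMP5, a lysosome-associated membrane protein, had values of -0.53, -0.58, -0.98 and -1.25, a log2 difference of -0.56 (SE 0.17). The 6 were picked by this difference and by a like sign in both pairs. That both lysates numbered 2 lay below both numbered 1 in all 6 (against 15.8% of all genes) thus adds no separate evidence.

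The lysates within a number differed from each other as well. For each of 8144 nuclear genes averaging at least 10 CPM, the polysome association of a lysate was set against the median of the other 3. CT2 exceeded that median by more than 1 on the log2 scale for 110 genes (1.35%), against 47 in CT1, 35 in U1 and 51 in U2. U2 lay more than 1 below it for 197 genes (2.42%), against 62 in CT1, 43 in U1 and 38 in CT2. Many of the genes that stood out in CT2 had a purine-rich stretch in the coding sequence, a trait chosen after their values were seen. The highest share of A and G in any 150-base window of the coding sequence was computed for 7876 genes. In the top 5 percent (394 genes, windows of at least 76.0% purine) 65 exceeded by more than 1 in CT2 (16.5%), against 101 of all 7876 (1.28%). In 5 equal bins of the window share, from the lowest, 2, 5, 6, 7 and 81 genes did so. Overlapping traits also gave raised shares in their top 5 percent. These were 11.9% for the purine share of the whole coding sequence, 10.15% for glutamate codons and 7.61% for lysine codons. The window gave the largest share, and these traits were not told apart.

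The 150-base windows of 4 genes, picked by hand, are printed as examples (spliced coding sequence from GENCODE v29, GRCh38, coding strand, runs of at least 6 A or G in capitals). NOP58 and EIF3A had their highest polysome association in CT2, NOP56 in U2 and LAMP5 in CT1. They cover bases 1330 to 1479 of the NOP58 coding sequence (chr2:202300295-202302997, plus strand), 1309 to 1458 of NOP56 (chr20:2657108-2657967, plus strand), 2422 to 2571 of EIF3A (chr10:119049888-119050572, minus strand) and 272 to 421 of LAMP5 (chr20:9516034-9516307, plus strand), with introns left out. The windows of NOP58 and EIF3A are 82.0% and 82.7% purine, that of NOP56 71.3%, and that of LAMP5, the lowest, 60%.
NOP58: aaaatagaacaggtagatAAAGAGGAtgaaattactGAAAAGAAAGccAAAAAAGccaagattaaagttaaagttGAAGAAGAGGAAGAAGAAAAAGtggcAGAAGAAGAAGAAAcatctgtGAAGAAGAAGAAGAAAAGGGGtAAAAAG
NOP56: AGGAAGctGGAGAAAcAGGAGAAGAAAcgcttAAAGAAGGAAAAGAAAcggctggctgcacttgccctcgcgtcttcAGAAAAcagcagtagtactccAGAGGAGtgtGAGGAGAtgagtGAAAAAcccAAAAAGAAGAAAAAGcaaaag
EIF3A: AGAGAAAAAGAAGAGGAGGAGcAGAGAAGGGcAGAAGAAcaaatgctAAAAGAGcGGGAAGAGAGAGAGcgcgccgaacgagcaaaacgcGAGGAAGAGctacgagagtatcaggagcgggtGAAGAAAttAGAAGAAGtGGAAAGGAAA
LAMP5: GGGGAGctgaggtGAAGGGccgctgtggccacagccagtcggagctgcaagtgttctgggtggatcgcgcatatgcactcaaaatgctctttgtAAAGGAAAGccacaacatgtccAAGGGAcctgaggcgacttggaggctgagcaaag

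PPIG, a nuclear cyclophilin, stood at 66.8 CPM in polysome CT2 and at 12.7, 8.36 and 7.38 CPM in polysome CT1, U1 and U2, with 34.7 to 44.9 CPM in input. EIF3A stood at 292 CPM in polysome CT2 and at 71.9, 57.2 and 54.3 CPM in polysome CT1, U1 and U2, with 87.0 to 96.2 CPM in input. DDX46, a helicase of the spliceosome, stood at 119 CPM in polysome CT2 against 24.95, 19.3 and 13.4 CPM. In each of these CT2 alone was high, and U2 was level with or below U1. PRRC2C, a protein of stress granules, stood at 334 CPM in polysome CT2 against 127, 129 and 109 CPM, and NEXN, an actin-binding protein, at 138 CPM against 29.9, 49.7 and 38.9 CPM. None of these 5 genes was called (adjusted p = 1 each, edgeR, unadjusted p from 0.00369 to 0.037). The noncoding RNA MALAT1, which is kept in the nucleus, showed the same at 304 CPM in polysome CT2 against 13.5, 5.21 and 2.22 CPM. CLSPN deviated most in CT2 of the coding genes averaging at least 30 CPM, by 3.49, but it also deviated most in CT1, by 1.43. It stood at 42.5, 13.7, 154.5 and 7.52 CPM in polysome CT1, U1, CT2 and U2, so that here CT2 was not alone.

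Over the top 5 percent of genes by purine window, the median deviation from the other lysates was 0.31 in CT2 and -0.02, -0.12 and -0.09 in CT1, U1 and U2. Across the 7876 genes, which share each library, the deviation correlated with the purine share of the window at r = 0.22 in CT2 and between -0.09 and 0.01 in the other 3 lysates. The median difference between the numbers was 0.16 in that top group and -0.06 in the lowest of 5 equal bins, and within the top group it was 0.29 in the CT pair and 0.01 in the U pair. Polysome CT2 also had the most reads placed at more than 1 site (4.95%, against 3.41% to 3.75% in the other polysome libraries) and the most genes with a count (15910, against 14344 to 15142). Their part in the pattern was not tested. NOP58 thus lay in the top 5 percent by its window and was highest in CT2, but it was also higher in U2 than in U1, by 0.64.

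**Figure D5:**
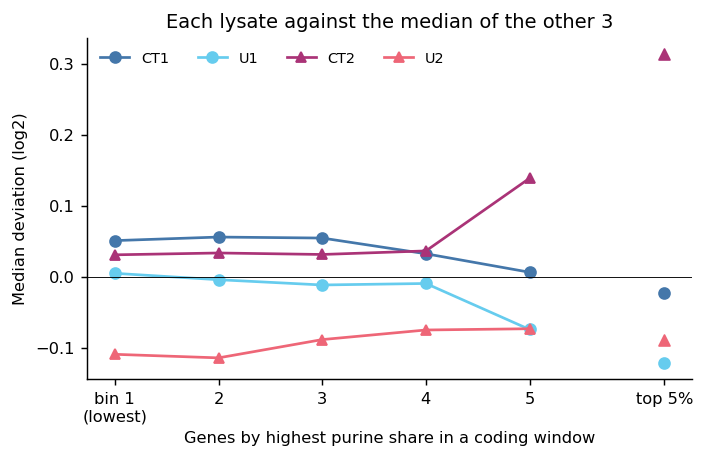
Median deviation of each lysate from the median of the other 3 lysates, in log2 polysome association, for genes in 5 equal bins of the highest purine share in a 150-base coding window, and for the top 5 percent on the right. The CT2 line turns up in bin 5 and reaches 0.31 in the top 5 percent, where the other 3 lysates lie between -0.12 and -0.02.

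In 5 equal bins of coding length, the median difference of protein-coding genes lay between -0.05 and -0.01. By gene class, protein-coding genes had a median of -0.03, long intergenic noncoding genes 0.00, antisense genes -0.04 and processed pseudogenes 0.19. Of 470 pseudogenes 0 were called (5 at an unadjusted p under 0.05, edgeR, against 3.02% of all genes).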

How the data were processed

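Input and polysome RNA of 4 lysates were sequenced, 8 libraries in all. The deposited files hold raw counts per gene. The submitters' processing notes name Trimmomatic 0.38, Bowtie2, HTSeq 0.11.2 and GRCh38 as what the authors used. The sources used here give no annotation release or strand setting, so reads of overlapping genes cannot be told apart, and reads over exon junctions may be lost. Lines that name no gene held 13.2% to 15.0% of reads and stayed out.

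Counts of 16503 genes kept by filterByExpr were fitted with edgeR 4.0.16 (R 4.3.3, TMM, quasi-likelihood F test). The model had the lysate as block, the fraction, and the fraction-by-number term, which left 2 residual degrees of freedom. Benjamini-Hochberg adjustment ran over all genes tested, and calls needed an adjusted p under 0.05. Association per lysate is polysome minus input log2 CPM with a prior count of 2. Fitted differences weight lysates by their counts and can depart from the mean of the lysates. The script was tested on simulated data.

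The lysates pair the libraries, since both libraries of a lysate were taken from it per the labels. Deviations from the fraction mean correlated at 0.31 to 0.44 within a lysate and at -0.41 to 0.06 between lysates (8159 genes). No 2 libraries held identical counts, and the chi-square of their counts was 23.6 to 93.1 per degree of freedom.

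Alternatives were RLE, upper quartile and library size scaling, DESeq2 1.42.0, limma-voom 3.58.1, other filters, no block, a label-by-fraction term, thinning to the shallowest library, a GC and length correction, and leaving out each lysate. Leaving out the genes of chromosome M was added after seeing the data. The grouping by number and the 26 gene lists were chosen with earlier results of these data known. Named were FBL, up to 12 called protein-coding or long noncoding genes per direction with a mean of at least 10 CPM and the same sign in both pairs, filled to 6 by smallest p where fewer were called, and in each list up to 3 called members per direction or else the 2 with the smallest p. GENCODE v29 gave gene types and coding sequences, with the longest coding transcript used per gene. RefSeq gave start sites. NOP58 was not matched there. A result that the rule for named genes selects is not reported here.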

Additional observations from a re-analysis of the deposited data

Results flagged for a closer look

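5 named genes had values of opposite sign in the 2 pairs of lysates, with 1 lysate against 1 in each, and the difference between the pairs was not tested. EIF3A differed by 2.05 between CT2 and CT1 and by -0.05 between U2 and U1 on the log2 scale. SMC4 differed by 3.995 in the CT pair and by -0.63 in the U pair. MALAT1 differed by 4.52 and -1.12, and MIR17HG, the host gene of a microRNA cluster, by 3.04 and -0.57. MIR17HG had no count in polysome CT1, U1 or U2, so that its values rest on the prior count and on input. RFC2 differed by 0.019 and -0.61. In the first 4 the CT pair carries the difference and polysome CT2 is the library that stands apart, while RFC2 was flat in the CT pair.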

How the results depend on the processing

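The count of 6 genes depends on the processing. It was 18 with each of the 3 other scalings (17 higher, 1 lower, all 6 among them), 7 with DESeq2 (4 of the 6, without MT-ND4 and MT-ND2), 0 with limma-voom (587 at an unadjusted p under 0.05), 52 without a filter on low counts (46 higher, 6 lower), 1 among genes of at least 10 CPM (MT-RNR1) and 0 with no replicate block (557 at an unadjusted p under 0.05). With the replicate block and libraries thinned to the shallowest it was 2, with the replicate block and a GC and length correction 25 (21 higher, 4 lower), with the replicate block and a label-by-fraction term 6 (5 of the 6), and with the genes of chromosome M left out 2. Leaving out 1 lysate, which leaves a single lysate of that number that is assumed to vary like the others, gave 0 to 200 genes (0 to 94 higher, 0 to 153 lower): 0 without CT1 (288 at an unadjusted p under 0.05, edgeR), 200 without CT2, 0 without U1 (289) and 100 without U2. Each of the 6 genes kept its direction in every alternative that tested it. All 13 mitochondrial mRNAs were higher in each alternative that held them, except 12 without U1, and their median ran from 0.56 to 1.52. Without CT2, EIF3A reversed to -0.15, SMC4 to -0.51 and MALAT1 to -1.73, with ranges over the lysates left out up to 2.16, 3.88 and 5.06. GPX1, at -0.23, ran from -0.53 to 0.065 and reversed without U2, and PPBP, at -2.98 with a mean of 0.62 CPM and no count in 2 polysome libraries, ran from -5.96 to 1.05 and reversed without U1. Of the other values of named genes, 949 kept their side of the threshold, 48 passed it anew and 34 no longer passed it, and 367 of 413 list medians moved by less than the spread between lysates. With 2 lysates per number, differences of the size of most list medians were not detectable for single genes.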
